A study of Mus musculus with 3 samples.

Results

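The mouse Hox genes were followed across the cell types of the kidney cortex. Members were all gene symbols that read Hoxa, Hoxb, Hoxc or Hoxd followed by a number only, so that antisense and read-through transcripts were left out, and 37 of the 22535 genes in the count tables met this rule. They comprised 11 Hoxa, 10 Hoxb, 7 Hoxc and 9 Hoxd genes, which lie in 4 clusters on chromosomes 6, 11, 15 and 2. Hox genes encode homeodomain transcription factors that give body regions their identity along the axis from head to tail. Within a cluster, low-numbered genes act towards the head and high-numbered genes towards the tail, and genes with the same number in different clusters are paralogues with closely related proteins. Adult cells often keep the Hox pattern of the region and germ layer they came from. In the kidney, Hoxa11, Hoxc11 and Hoxd11 act together, and without them the metanephric kidney does not form.

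The 3 libraries were made from the kidney cortex of WT1CreERT2; Rosa26-tdTfl/+ mice, in which CreERT2 sits in the Wt1 locus and tamoxifen makes Wt1-expressing cells and their descendants carry the red fluorescent protein tdTomato (tdT). The library Sham held tdT+ and tdT- cells after sham surgery, with tdT+ cells in excess. In IRI24h-TDN such a mixture was taken from kidneys that had both gone through severe ischemia-reperfusion injury (IRI) 24 h earlier. For IRI24h-TD only the tdT+ cells were taken, again 24 h after bilateral IRI. Each library was pooled from several kidneys and stands for 1 condition, so no replicates existed, no test between conditions could be made, and the spread between animals is unknown.

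Cells were sorted into classes by lists of marker genes, and the Hox genes took no part in this, so that Hox levels could be compared between classes. The 26760 cells kept had a median of 8876 unique molecular identifiers (UMIs, 1 per captured RNA molecule), with a library range of 7746 to 9529. Of these cells, 18421 were podocyte-like and 1362 resembled parietal epithelial cells (PECs) of Bowman's capsule. The tubule classes were 1261 cells like proximal tubule epithelial cells (PTECs), 588 ascending limb-like, 484 distal convoluted tubule-like, 605 connecting tubule/principal-like and 536 intercalated-like cells. Another 704 cells were mesangial/mural-like, 125 fibroblast-like, 315 endothelial-like, 1231 monocytic-like, 53 neutrophil-like and 102 lymphocyte-like. Barcode sequences occurred in more than 1 library 102, 114 and 114 times for the 3 pairs of libraries, and 2 of them in all 3. A level is given in CPM, the UMIs of a gene per 1000000 UMIs of a class. Bracketed ranges are exact 95% intervals, Poisson for levels and Clopper-Pearson for shares of cells, and cover counting error only.

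RNA of podocyte markers was found in all classes, and its amount is given beside the results. Whether it came from released RNA, from doublets or from the cells themselves was not tested. The level that podocyte RNA alone would give is the podocyte-like level of a gene times the share of the podocyte markers in a class. The summed level of the 10 podocyte markers, with 43880 CPM in podocyte-like cells, was 7.23% of that value in PEC-like, 2.25% in PTEC-like, 0.786% in distal convoluted tubule-like and 3.67% in monocytic-like cells. It was 12.4% in fibroblast-like, 31.2% in endothelial-like and 40.4% in neutrophil-like cells. None of the 10 markers was at 0 in any class.

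Hox RNA was found in epithelial, stromal and endothelial classes alike, and 25 of the 37 members reached 10 CPM with at least 30 UMIs in at least 1 class. The other 12 members did not. They included Hoxb1 and Hoxd1 at the start and Hoxa13, Hoxb13 and Hoxd13 at the end of their clusters, as well as Hoxa2, Hoxb2, Hoxb3 and Hoxd12, and the highest class level of these 12 ranged from 0.00587 CPM for Hoxd12 to 8.95 CPM for Hoxa2 in mesangial/mural-like cells. Hoxa13, Hoxb13, Hoxd12 and Hoxd13, the genes nearest the tail end, had 1, 1, 1 and 2 UMIs over all named classes. Members reached the limit in 174 pairs of member and class. The number was 17 in podocyte-like cells, where 35% of all genes reached it, 21 in PEC-like (41.4% of all genes), 22 in mesangial/mural-like (36.9%), 18 in connecting tubule/principal-like (37.6%) and 14 in PTEC-like cells (36.2%). It was 17 in ascending limb-like (35.8%), 15 in distal convoluted tubule-like (34.8%), 16 in intercalated-like (36.6%), 15 in fibroblast-like (24.2%) and 13 in endothelial-like cells (29.2%). Among blood-derived classes 2 members reached it in monocytic-like (34.8% of all genes), 3 in neutrophil-like (8.34%) and 1 in lymphocyte-like cells (14.4%).

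The summed level of all members was highest in connecting tubule/principal-like cells, with 2206 CPM (2167 to 2245) over the pooled libraries, followed by distal convoluted tubule-like cells with 2012 CPM (1979 to 2046). The libraries entered these classes in unlike shares, with 237 and 339 cells of the former and 45 and 423 of the latter from Sham and IRI24h-TDN. Within Sham the order was turned, with 2559 CPM in connecting tubule/principal-like and 2636 CPM in distal convoluted tubule-like cells, and within IRI24h-TDN they had 2019 and 1967 CPM. Podocyte-like cells had 1636 CPM (1630 to 1642) and ascending limb-like cells 1615 CPM (1582 to 1648), with overlapping intervals, but 1726 and 2083 CPM within Sham and 1612 and 1538 CPM within IRI24h-TDN. PEC-like cells had 1500 CPM, fibroblast-like 1382, intercalated-like 1305, mesangial/mural-like 1155 and endothelial-like cells 1004 CPM. The 53 neutrophil-like cells had 1134 CPM over all, with 307 CPM in Sham and 1314 CPM in IRI24h-TDN, where podocyte markers were at 13.3% and 47.7% of their podocyte-like level. PTEC-like cells stood apart from the other nephron segments with 567 CPM (552 to 581). Lymphocyte-like cells had 189 CPM and monocytic-like cells 78.1 CPM, the lowest class. Lymphocyte-like and monocytic-like cells served as the background.

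The share of cells with a Hox UMI was high in all classes of the nephron but the PTEC-like. Cells with at least 2000 UMIs were thinned to 2000 UMIs, and cells below that were left out of all thinned values. This kept 17786 of 18421 podocyte-like and 1082 of 1261 PTEC-like cells. After thinning, 97.7% of distal convoluted tubule-like and 97.2% of connecting tubule/principal-like cells held at least 1 UMI of a member. So did 95.1% of podocyte-like (94.8 to 95.4) and 92.0% of PEC-like cells (90.4 to 93.4). The share was 61.9% (59.0 to 64.8) in PTEC-like cells, 21.1% in lymphocyte-like and 8.97% (7.42 to 10.7) in monocytic-like cells. A thinned podocyte-like cell showed a mean of 2.53 members and a PTEC-like cell 0.976.

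**Figure D1:**
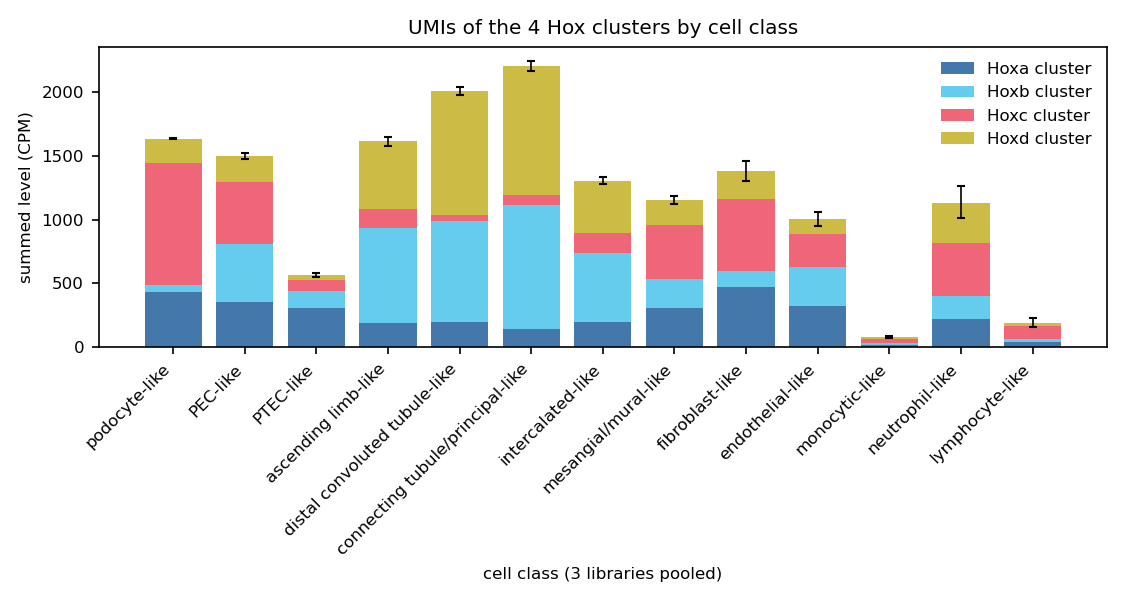
Bars give the summed level of the members of each Hox cluster (CPM, y axis) in each cell class (x axis, 3 libraries pooled), stacked by cluster, and whiskers the exact 95% Poisson interval of the sum. Hoxc genes took the largest part in podocyte-like cells, Hoxb and Hoxd genes in the distal tubule classes, and monocytic-like cells lay lowest at 78.1 CPM.

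The 4 clusters were used in different proportions. In podocyte-like cells, Hoxc genes made up 58.7% of Hox UMIs (961 CPM), Hoxa genes 26.3%, Hoxd genes 11.7% and Hoxb genes 3.32% (54.3 CPM). In connecting tubule/principal-like cells the order was turned, with 45.9% for Hoxd (1012 CPM), 44.2% for Hoxb (974.8 CPM), 6.40% for Hoxa and 3.50% for Hoxc (77.3 CPM). Distal convoluted tubule-like cells had 48.4% Hoxd, 39.2% Hoxb and 2.55% Hoxc. Hoxa genes led in PTEC-like cells, with 54.1% (307 CPM), and by little in endothelial-like cells, with 32.2% against 30.6% for Hoxb. In PEC-like cells the parts were nearly even, at 32.2% Hoxc, 30.4% Hoxb, 23.7% Hoxa and 13.6% Hoxd. UMIs were not corrected for how well each transcript is captured, so these shares compare classes rather than genes.

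**Figure D2:**
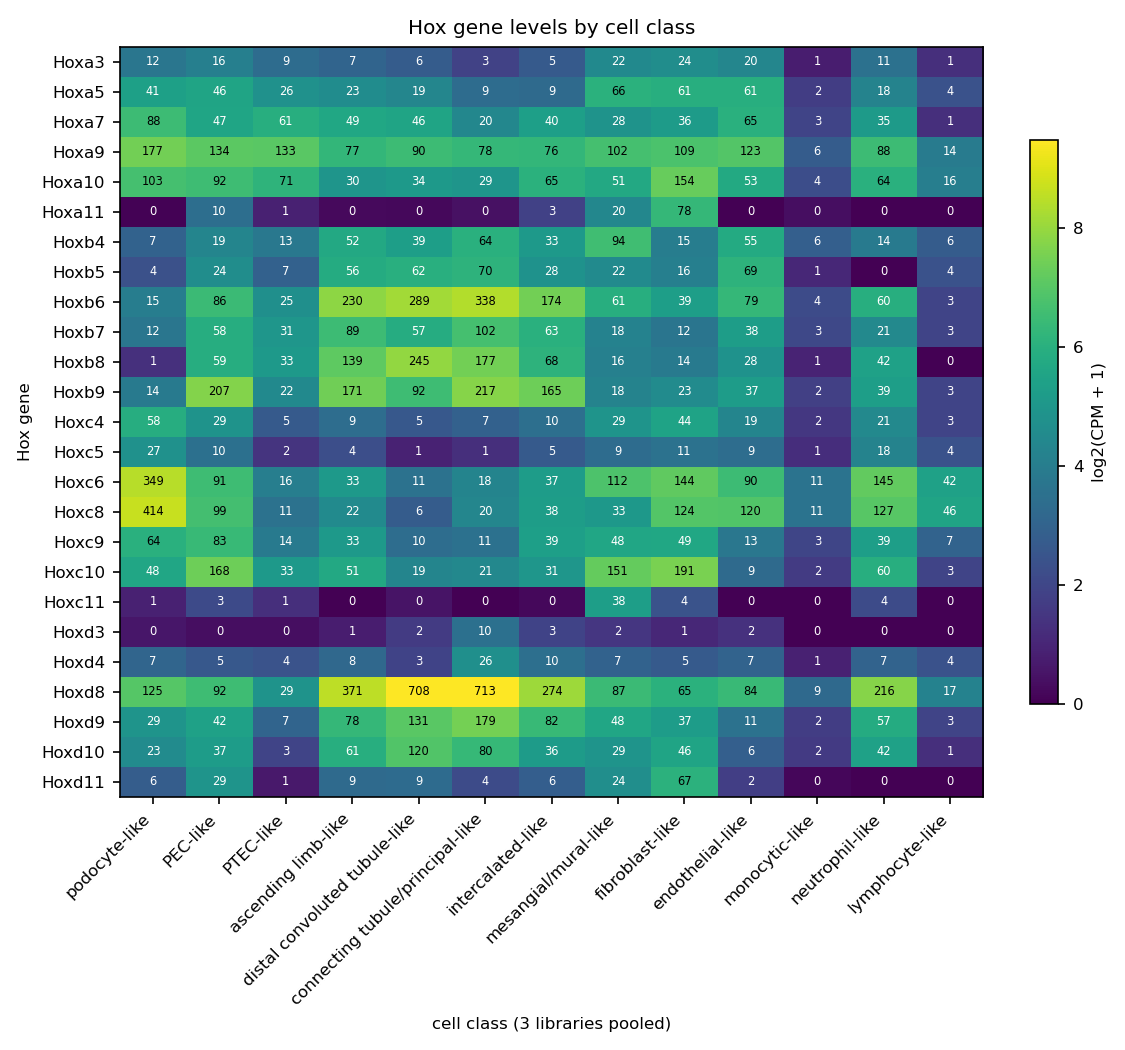
Each cell of the map gives the level in CPM (number) and log2(CPM + 1) (colour) of the 25 members that reached 10 CPM in some class (y axis) in 13 cell classes (x axis, 3 libraries pooled). Hoxc6 and Hoxc8 peaked in podocyte-like cells at 349 and 414 CPM, Hoxb6 in connecting tubule/principal-like cells at 338 CPM, and Hoxa11 in fibroblast-like cells at 78.0 CPM.

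Each of the 25 members was assigned to the class with its highest level over the pooled libraries, which for some members was another class in a single library. No member was highest in PTEC-like (11.9% of all genes), ascending limb-like (2.72%), intercalated-like (6.85%), endothelial-like (10.4%), monocytic-like (13.7%), neutrophil-like (2.33%) or lymphocyte-like cells (4.54%).

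Podocyte-like cells had the highest level of 6 members, 4 of them in the Hoxc cluster, while 12.6% of the 12154 genes past the same limit were highest there. Hoxc8, which marks the thoracic region in the embryo, reached 455 CPM in Sham, 413 CPM in IRI24h-TDN and 398 CPM in IRI24h-TD. Hoxc6, its neighbour, had 363, 330 and 354 CPM. In all 3 libraries these levels exceeded those of every other class of at least 50 cells in that library. Over the pooled libraries Hoxc8 had 414 CPM (411 to 418) and the next class, neutrophil-like cells, 127 CPM (89.1 to 176), where podocyte RNA alone would give 168 CPM. A Hoxc8 UMI was seen in 88.5% of podocyte-like cells (53.0% after thinning), against 2.84% of monocytic-like cells (0.823% after thinning), and a Hoxc6 UMI in 87.1% (47.6% after thinning), against 4.14% (1.23% after thinning). The median UMIs per cell were 5267 in the monocytic-like and 9124 in the podocyte-like class.

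The other members highest in podocyte-like cells were less restricted. Hoxa9 had 177 CPM (175 to 179) there, followed by 134 CPM (128 to 140) in PEC-like and 133 CPM (126 to 140) in PTEC-like cells. Hoxa7 had 88.3 CPM, Hoxc4 58.4 CPM and Hoxc5 26.5 CPM. For Hoxc4 the interval overlapped with that of fibroblast-like cells at 44.4 CPM, and for Hoxc5 with that of neutrophil-like cells at 17.7 CPM. Hoxb8 was at 1.47 CPM and Hoxa11 at 0.0411 CPM in podocyte-like cells, which is 7 UMIs in 18421 cells. The 5 podocyte-like clusters ranged from 386 to 455 CPM for Hoxc8 and from 297 to 369 CPM for Hoxc6, and the cluster led by Malat1 and mitochondrial genes, with a median of 1198 UMIs per cell, lay inside or at the lower end of these ranges at 430 and 297 CPM.

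Connecting tubule/principal-like cells, the segment that regulates sodium and water under aldosterone and vasopressin, had the highest level of 8 members, all of them Hoxb or Hoxd genes, beside 6.1% of all genes past the limit. Hoxd8 reached 713 CPM in this class over the pooled libraries. The other 7 were Hoxb6 (338 CPM), Hoxb9 (217 CPM), Hoxd9 (179 CPM), Hoxb7 (102 CPM), Hoxb5 (69.5 CPM), Hoxd4 (25.7 CPM) and Hoxd3 (10.2 CPM). For 3 of these 7 the interval overlapped with that of the next class, which was ascending limb-like for Hoxb7 (89.0 CPM), endothelial-like for Hoxb5 (69.2 CPM) and PEC-like for Hoxb9 (207 CPM). In Sham, Hoxb5 was at 86.9 CPM in endothelial-like and 72.5 CPM in connecting tubule/principal-like cells. Distal convoluted tubule-like cells, the site of the thiazide-sensitive transporter, were highest for Hoxb8 (245 CPM, 233 to 257) and Hoxd10 (120 CPM), beside 3.88% of all genes. Hoxd8 had like pooled levels in both classes, at 713 CPM (691 to 735) and 708 CPM (689 to 728), but not within libraries. In Sham it had 922 CPM (879 to 966) in connecting tubule/principal-like and 1230 CPM (1139 to 1326) in the 45 distal convoluted tubule-like cells, and in IRI24h-TDN 612 CPM (586 to 639) and 668 CPM (648 to 689), so that the distal convoluted tubule-like level was the higher in both. Hoxd8 was seen in 90.2% and 95.7% of their cells (65.7% and 68.2% after thinning), against 3.17% of monocytic-like cells (0.905% after thinning).

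Along the tubule the leading Hoxb and Hoxd genes were lowest in the proximal segment and peaked in the distal convoluted or connecting tubule. Hoxd8 was at 28.6 CPM in PTEC-like, 371 CPM in ascending limb-like, 708 CPM in distal convoluted tubule-like, 713 CPM in connecting tubule/principal-like and 274 CPM in intercalated-like cells. Hoxb6 had 25.2, 230, 289, 338 and 174 CPM in the same order. Hoxb8 had 33.1, 139, 245, 177 and 68.3 CPM, so that it peaked 1 segment earlier. Its level in distal convoluted tubule-like cells was above that in connecting tubule/principal-like cells within Sham, at 264 and 178 CPM, and within IRI24h-TDN, at 244 and 175 CPM. The podocyte genes Hoxc6 and Hoxc8 were at 10.8 and 5.71 CPM in distal convoluted tubule-like cells, where podocyte RNA alone would give 2.74 and 3.26 CPM.

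The 300 bases around the start sites of 4 of these genes are shown, Hoxd4, Hoxd8 and Hoxd9 because these neighbours on chromosome 2 had their highest pooled levels in connecting tubule/principal-like cells and are the genes that the comparison of Sham with IRI24h-TDN turned on, and Hoxb8 for its place in distal convoluted tubule-like cells. Sequences are from RefSeq on GRCm38.p6, plus strand, from 250 bases before to 50 bases after a start site. Hoxd9 lies at chr2:74697513-74697812, Hoxd8 at chr2:74704365-74704664, Hoxd4 at chr2:74721728-74722027 and Hoxb8 at chr11:96281655-96281954. Capitals mark matches to TTTATNG, a motif bound by CDX and posterior HOX proteins, or to its reverse complement CNATAAA.
Hoxd9: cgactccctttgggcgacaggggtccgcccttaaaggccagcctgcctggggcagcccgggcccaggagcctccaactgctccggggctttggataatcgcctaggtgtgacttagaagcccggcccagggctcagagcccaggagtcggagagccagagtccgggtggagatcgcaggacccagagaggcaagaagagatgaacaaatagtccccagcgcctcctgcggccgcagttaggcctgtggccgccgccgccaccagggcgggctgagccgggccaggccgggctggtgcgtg
Hoxd8: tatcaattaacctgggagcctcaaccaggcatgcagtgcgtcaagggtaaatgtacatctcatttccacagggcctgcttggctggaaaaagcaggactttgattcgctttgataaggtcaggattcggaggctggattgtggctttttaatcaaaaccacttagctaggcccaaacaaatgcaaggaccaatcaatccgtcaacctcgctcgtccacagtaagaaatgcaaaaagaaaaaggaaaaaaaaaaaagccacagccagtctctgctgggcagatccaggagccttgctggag
Hoxd4: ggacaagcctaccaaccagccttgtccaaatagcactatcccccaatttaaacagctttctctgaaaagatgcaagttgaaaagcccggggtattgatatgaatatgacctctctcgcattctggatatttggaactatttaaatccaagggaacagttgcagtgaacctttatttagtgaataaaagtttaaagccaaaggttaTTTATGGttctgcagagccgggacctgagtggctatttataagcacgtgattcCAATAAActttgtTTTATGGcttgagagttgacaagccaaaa
Hoxb8: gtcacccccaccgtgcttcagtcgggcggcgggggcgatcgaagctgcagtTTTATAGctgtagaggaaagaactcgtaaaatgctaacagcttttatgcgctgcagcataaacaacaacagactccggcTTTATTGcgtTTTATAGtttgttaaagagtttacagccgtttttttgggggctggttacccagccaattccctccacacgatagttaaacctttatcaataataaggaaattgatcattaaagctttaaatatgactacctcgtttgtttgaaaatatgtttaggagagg
The promoter of Hoxd9 held 20 CpG and that of Hoxd8 6, that of Hoxd4 4 and that of Hoxb8 13, beside a median of 7 over all 32851 promoters. TTTATNG, searched on both strands, was found 3 times in Hoxd4, 3 times in Hoxb8 and in none of the other 22 of the 24 promoter entries, which cover 22 members, and 10.9% of all promoters held it. TGATNNAT, a motif of PBX-HOX pairs, was found in the promoters of Hoxa2, Hoxb1, Hoxb8 and Hoxd11 and in 8.85% of all promoters, and none of these 4 matches shared a base with TTTATNG. The retinoic acid receptor motif of direct repeats 5 bases apart was found in none of the 24 and in 3 of all promoters. These matches describe the sequence and were not tested for binding.

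Fibroblast-like cells had Hoxc10 at 191 CPM (164 to 221), Hoxa10 at 154 CPM, Hoxa11 at 78.0 CPM (61.1 to 98.3) and Hoxd11 at 67.2 CPM, and these 4 were highest there, beside 6.62% of all genes past the limit, though the interval of Hoxc10 overlapped with that of PEC-like cells at 168 CPM. Mesangial/mural-like cells were highest for Hoxb4 (94.0 CPM, 84.5 to 104), Hoxa5 (66.1 CPM), Hoxc11 (38.4 CPM) and Hoxa3 (21.6 CPM), beside 9.63% of all genes. The interval of Hoxa5 overlapped with those of fibroblast-like (60.7 CPM) and endothelial-like cells (60.6 CPM), and Hoxa3 had 23.8 CPM in fibroblast-like cells on too few UMIs to count. The 3 Hox11 paralogues summed to 150 CPM in fibroblast-like, 82.7 CPM in mesangial/mural-like and 41.8 CPM in PEC-like cells, but to 6.85 CPM in podocyte-like and 2.83 CPM in PTEC-like cells.

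The 125 fibroblast-like cells differed between libraries in ways that touch these values. Hoxc10 was at 327 CPM in Sham (60 cells), 78.9 CPM in IRI24h-TDN (40 cells) and 327 CPM in IRI24h-TD (25 cells), and Hoxd11 at 124, 21.7 and 120 CPM. In IRI24h-TDN both were higher in mesangial/mural-like cells, at 148 and 27.9 CPM, so that fibroblast-like cells did not lead in that library. Hoxa11, at 60.1, 92.7 and 60.2 CPM, and Hoxa10, at 167, 158 and 103 CPM, exceeded the levels of all other classes in each library, in IRI24h-TD for Hoxa10 within counting error of podocyte-like cells at 98.7 CPM. The podocyte markers were at 19.6%, 5.32% and 22.5% of their podocyte-like level in the same libraries, and Hoxc8 at 197, 55.3 and 232 CPM. The podocyte markers, Hoxc8, Hoxc10 and Hoxd11 were all lowest in IRI24h-TDN, and their part in these differences was not tested.

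Mesangial/mural-like cells formed 2 clusters that differed in Hoxc11. The cluster led by Ren1 and Notch3 (331 cells) had Hoxc11 at 64.6 CPM and Hoxd11 at 53.3 CPM, and the cluster led by Myh11 and Acta2 (373 cells), genes of contractile smooth muscle, had 19.5 and 3.63 CPM. Hoxb4 did not differ between them beyond counting error, with 97.2 and 91.7 CPM. Intercalated-like cells also formed 2 clusters. The cluster led by Aqp6 and Slc4a1, markers of acid-secreting type A cells, had Hoxa9 at 104 CPM and Hoxc6 at 64.7 CPM, and the cluster led by Slc26a4, the chloride-bicarbonate exchanger of type B cells, had 53.3 and 15.1 CPM. The podocyte markers summed to 4377 CPM in the former and 1061 CPM in the latter, and 9.71% and 3.10% of their cells had top doublet scores.

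PEC-like cells carried members of all 4 clusters, and only Hoxc9 was highest there, with 83.4 CPM (78.7 to 88.3), beside 8.7% of all genes past the limit. Within single libraries Hoxc9 was not set apart there. It had 97.6 CPM in Sham, where fibroblast-like cells had 100.2 CPM (67.6 to 143), 62.8 CPM in IRI24h-TDN, where podocyte-like cells had 63.9 CPM, and 73.4 CPM (64.8 to 82.8) in IRI24h-TD, where podocyte-like cells had 63.7 CPM (62.0 to 65.4). Hoxb9 had 226 CPM in Sham, 172 CPM in IRI24h-TDN and 202 CPM in IRI24h-TD, while connecting tubule/principal-like cells had 167 CPM in Sham and 237 CPM in IRI24h-TDN, so that the order of both classes differed between these libraries. Hoxc10 had 196, 118 and 154 CPM. In podocyte-like cells Hoxb9 was at 13.8 CPM and Hoxc10 at 47.9 CPM, so that both were higher in PEC-like cells taken as a class. Hoxc8, at 99.1 CPM (94.0 to 104) in PEC-like cells, exceeded the 29.9 CPM that podocyte RNA alone would give.

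The 3 PEC-like clusters differed among themselves. The cluster led by Gc and Wfdc16 (681 cells) had Hoxb9 at 200 CPM and Hoxc8 at 41.4 CPM, and the proximal tubule markers summed to 6129 CPM in it, above its PEC markers at 5442 CPM. It held 681 of the 1362 PEC-like cells with no PEC marker among its 10 leading genes, and at resolution 2 a cluster of 308 cells led by Wfdc16 and Gc stayed unnamed for its proximal tubule markers. The cluster led by Clstn2, Fbn1 and Tenm2 (370 cells) had Hoxc8 at 262 CPM (242 to 282), Hoxc10 at 217 CPM and Hoxb9 at 50.8 CPM, and its podocyte markers summed to 7516 CPM. The cluster led by Tnc, Wnt16 and Cp (311 cells), with the highest sum of PEC markers at 14532 CPM, had Hoxb9 at 355 CPM (334 to 377), Hoxc10 at 241 CPM and Hoxc8 at 133 CPM. An unnamed cluster led by Aldh1a1, Dkk3 and St8sia6 (530 cells) held podocyte markers at 30720 CPM and PEC markers at 1691 CPM, with Hoxc8 at 371 CPM and Hoxb9 at 19.7 CPM. Hoxc8 was thus ordered with the podocyte markers over these 4 clusters except in the Tnc cluster, whose podocyte markers, at 1722 CPM, were the lowest of the 4.

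**Figure D3:**
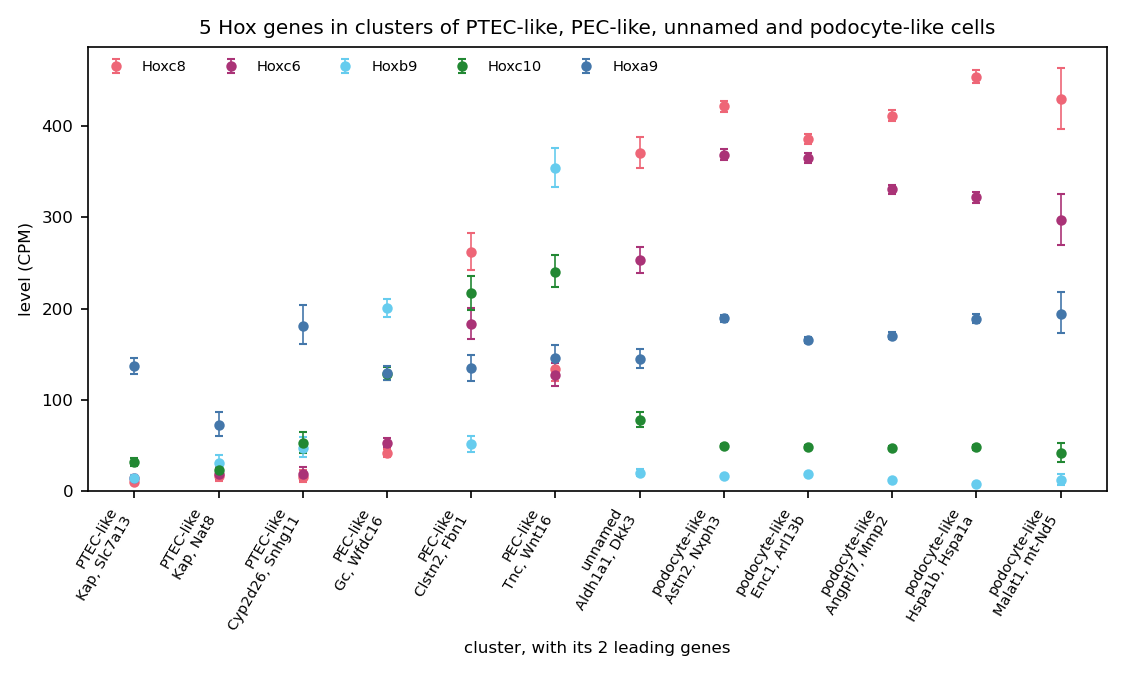
Points give the level (CPM, y axis) of Hoxc8, Hoxc6, Hoxb9, Hoxc10 and Hoxa9 in 12 clusters of PTEC-like, PEC-like, unnamed and podocyte-like cells (x axis, with their 2 leading genes, 3 libraries pooled), and whiskers the exact 95% Poisson interval. Hoxb9 was highest in the PEC-like cluster led by Tnc at 355 CPM and lay at or below 17.9 CPM in all 5 podocyte-like clusters, where Hoxc8 lay at or above 386 CPM.

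PTEC-like cells had the lowest Hox level of the nephron classes, and Hoxa genes made up most of it. Hoxa9 had 145 CPM in Sham, 97.5 CPM in IRI24h-TDN and 89.4 CPM in IRI24h-TD. Hoxa10 followed with 71.4 CPM and Hoxa7 with 60.9 CPM over the pooled libraries. Several Hoxb, Hoxc and Hoxd genes were lower there than in PEC-like cells, with 21.6 against 207 CPM for Hoxb9, 32.9 against 168 CPM for Hoxc10 and 28.6 against 92.4 CPM for Hoxd8. The cluster led by Cyp2d26, Snhg11 and Gatm had Hoxa9 at 181 CPM, and the clusters led by Kap with Slc7a13 and by Kap with Nat8 had 137 and 72.2 CPM.

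In endothelial-like cells, the levels of Hoxc6 and Hoxc8 were at or below those that podocyte RNA alone would give, with 90.5 CPM (74.7 to 109) against 109 CPM for Hoxc6 and 120 CPM (102 to 141) against 129 CPM for Hoxc8. Hoxb5, at 69.2 CPM, Hoxb6, at 79.4 CPM (64.7 to 96.5), and Hoxb4, at 55.1 CPM, lay far above the 1.28, 4.72 and 2.13 CPM that podocyte RNA would give. Hoxa9 had 123 CPM (104 to 144) against 55.4 CPM. In monocytic-like cells the highest members were Hoxc6 and Hoxc8, and both had 11.4 CPM (9.06 to 14.1). Podocyte RNA alone would give 12.8 CPM of Hoxc6, which lies inside this interval, and 15.2 CPM of Hoxc8, which lies above it.

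**Figure D4:**
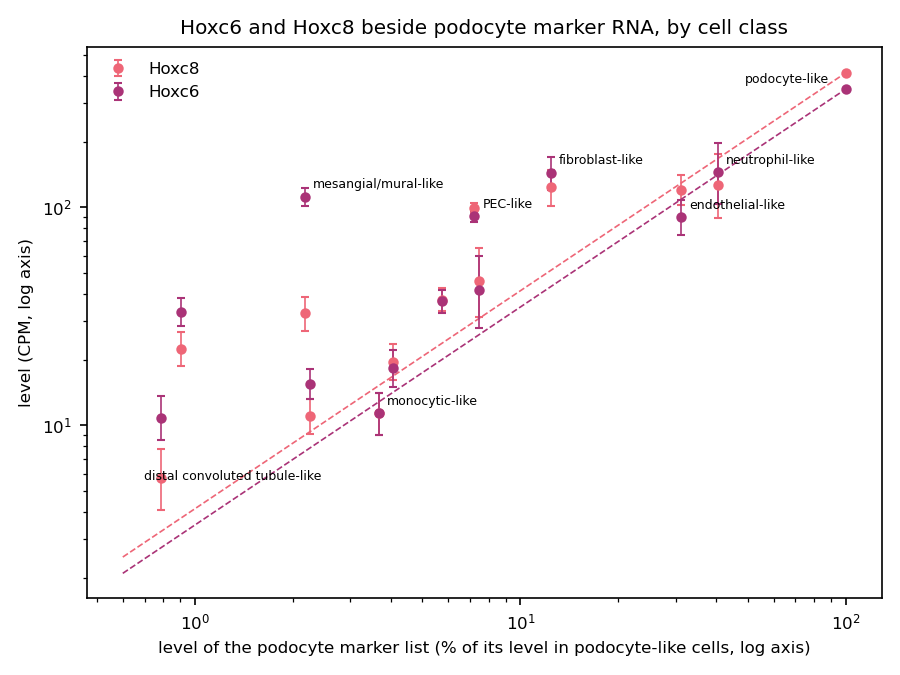
Points give the level of Hoxc8 and Hoxc6 (CPM, log y axis) against the summed level of the podocyte markers as a percentage of its level in podocyte-like cells (log x axis) in 13 cell classes, whiskers the exact 95% Poisson interval, and dashed lines the level that podocyte RNA alone would give. Endothelial-like cells lay on or just below the lines, and mesangial/mural-like cells lay above them with Hoxc6 at 112 CPM against 7.58 CPM.

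Sham and IRI24h-TDN, the libraries of mixed tdT+ and tdT- cells, were compared within the 9 classes that held at least 50 cells in each, to ask whether Hox levels differ after injury. Members with at least 20 UMIs in both libraries together gave 193 pairs of member and class, of which 24 were at least 2-fold lower and 7 at least 2-fold higher in IRI24h-TDN. By class, the members past 2-fold were 5 of 23 lower in ascending limb-like cells (11.5% of all genes compared), 5 of 25 lower in PEC-like cells (13.9%), 3 of 22 lower in connecting tubule/principal-like cells (7.54%), 3 of 22 lower in PTEC-like cells (13.4%) and 2 of 29 lower in podocyte-like cells (9.36%). They were 4 of 15 lower in endothelial-like cells (9.27%), 1 of 22 in intercalated-like cells (6.41%), 1 of 10 in monocytic-like cells (7.81%) and 0 of 25 in mesangial/mural-like cells (6.08%). The 7 that were higher were 2 of 23 in ascending limb-like (9.62%), 2 of 22 in PTEC-like (17%), 1 of 25 in mesangial/mural-like (5.68%), 1 of 15 in endothelial-like (6.56%) and 1 of 10 in monocytic-like cells (14.9%). None was higher past 2-fold in podocyte-like (5.49% of all genes), PEC-like (5.79%), connecting tubule/principal-like (9%) or intercalated-like cells (8.99%). Most of these shares past 2-fold lay near the background, and members are therefore described singly. Over the members compared, the median log2 ratio was -0.61 in PEC-like, -0.60 in ascending limb-like and -0.46 in connecting tubule/principal-like cells. It lay between -0.16 and 0.41 in the other classes. Members below 0 were 23 of 25 in PEC-like (56.3% of all genes), 15 of 23 in ascending limb-like (53.7%) and 17 of 22 in connecting tubule/principal-like cells (51.3%). The cause of these shifts was not tested. The median log2 ratio of all genes compared was 0.16 in PTEC-like and 0.24 in monocytic-like cells and between -0.10 and 0.04 in the other 7 classes.

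Hoxd4 and Hoxd9 had lower levels in IRI24h-TDN in each of the 7 classes in which they could be compared, though not beyond counting error in all of them. Hoxd4 passed 2-fold in 5 classes, with 34.3 CPM in Sham and 4.02 CPM in IRI24h-TDN in ascending limb-like cells (28 and 19 UMIs), 47.3 and 14.6 CPM in connecting tubule/principal-like cells, and 12.99 and 5.69 CPM in podocyte-like cells (475 and 283 UMIs). The remaining 2 were PEC-like cells, with 6.64 and 1.803 CPM, and PTEC-like cells, with 5.64 CPM and a single UMI in IRI24h-TDN (ratio 0.0868, 0.00215 to 0.509). In intercalated-like cells it had 13.9 and 8.02 CPM, and in mesangial/mural-like cells 7.59 and 6.64 CPM. The Sham level was the higher in each class, and the intervals did not overlap in the 5 classes past 2-fold. In 4 podocyte-like clusters taken separately Hoxd4 ranged from 10.3 to 15.01 CPM in Sham and from 4.72 to 7.56 CPM in IRI24h-TDN. Exons of Hoxd4 overlap with those of Hoxd3, of the read-through gene Gm28230 and of the antisense gene Hoxd3os1. Gm28230 had 5 UMIs in all barcodes against 1838 for Hoxd4, and how the counting treated strand is not given in the sources used here.

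Hoxd9 passed 2-fold in 4 of its 7 classes. It had 293 CPM in Sham and 124 CPM in IRI24h-TDN in connecting tubule/principal-like cells, 191 and 59.2 CPM in ascending limb-like cells, 135 and 60.8 CPM in intercalated-like cells and 52.3 and 24.0 CPM in PEC-like cells. Its levels in podocyte-like cells were closer, at 30.2 and 27.3 CPM (ratio 0.904, 0.834 to 0.979). In PTEC-like cells it had 7.40 and 6.37 CPM (ratio 0.860, 0.433 to 1.59). Mesangial/mural-like cells had 55.2 and 41.2 CPM (ratio 0.746, 0.547 to 1.02), so that neither class differed beyond counting error. In the PEC-like cluster led by Clstn2 the order was turned, with 76.9 CPM in Sham and 90.0 CPM in IRI24h-TDN, where IRI24h-TDN held 50 cells, and over the whole class Hoxd9 stayed past 2-fold in 8 of 14 other settings. Hoxd8, the next gene in the cluster, was past 2-fold only in ascending limb-like cells among the tubule classes, at 719 and 315 CPM. It was lower by less in connecting tubule/principal-like cells, at 922 and 612 CPM, and in intercalated-like cells, at 376 and 230 CPM, and it was higher in podocyte-like cells, at 112 and 131 CPM. The Hoxd sum in ascending limb-like cells was 1055 CPM in Sham and 442 CPM in IRI24h-TDN, while the Hoxb sum was 593 and 772 CPM. Hoxb6, lower in 2 and higher in 7 of its 9 classes, was past 2-fold in none of them.

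Other values moved with these differences. The markers of the ascending limb summed to 23929 CPM in Sham and 5159 CPM in IRI24h-TDN in ascending limb-like cells, and those of connecting tubule and principal cells to 17044 and 12248 CPM in their own class. The injury genes Havcr1, Lcn2, Krt20, Krt18 and Clu together had 1963 CPM in Sham and 17871 CPM in IRI24h-TDN in ascending limb-like cells, and 1932 and 21951 CPM in connecting tubule/principal-like cells. The markers of distal convoluted tubule summed to 3532 and 1097 CPM in the latter class, with 1 of the 5 at 0 over the pooled libraries, and only 119 of the 588 ascending limb-like cells came from Sham. The part of these in the Hox differences was not tested.

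**Figure D5:**
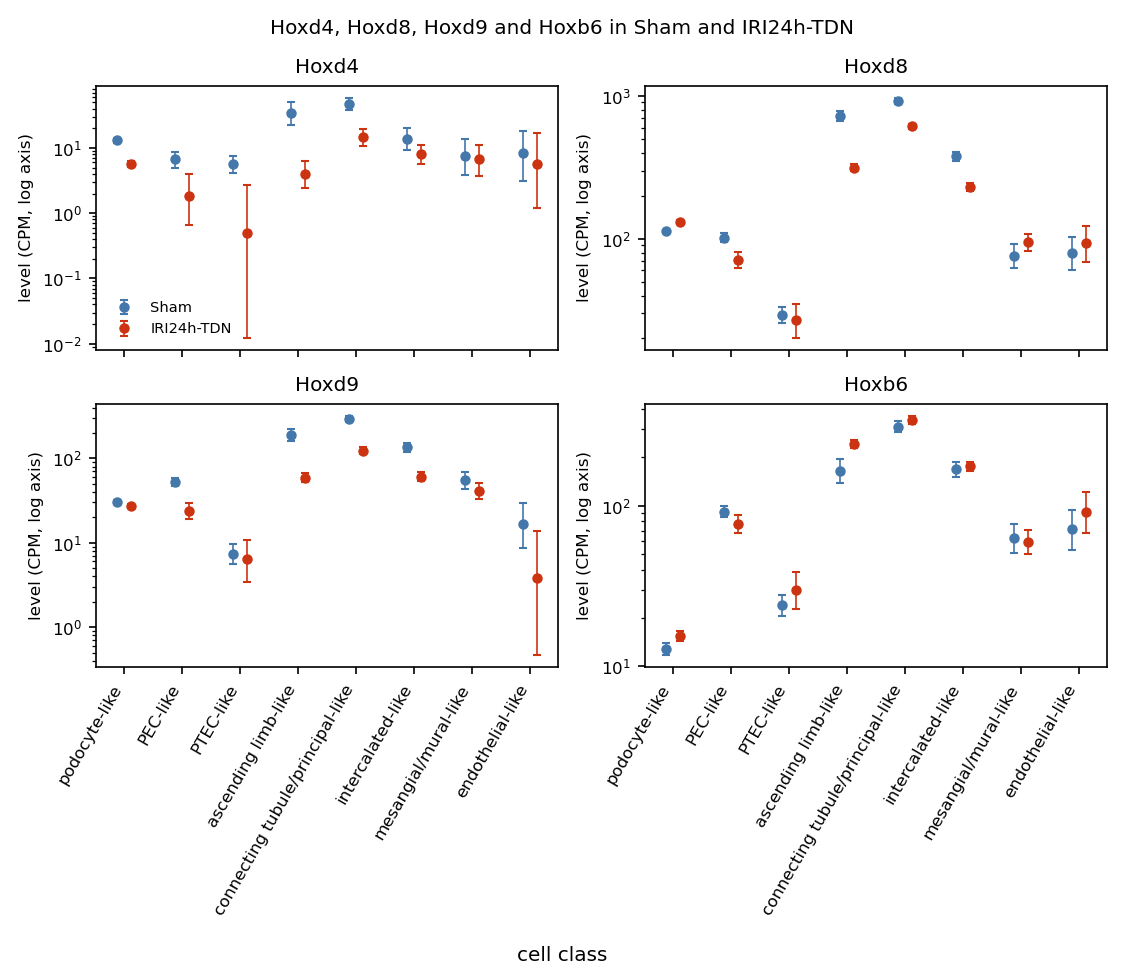
Points give the level (CPM, log y axes) of Hoxd4, Hoxd8, Hoxd9 and Hoxb6 in Sham and IRI24h-TDN in 8 cell classes (x axis), and whiskers the exact 95% Poisson interval. Hoxd4 and Hoxd9 lay lower in IRI24h-TDN in the 7 classes compared, not in all of them beyond counting error. Hoxd9 had 293 CPM in Sham against 124 CPM in IRI24h-TDN in connecting tubule/principal-like cells. In endothelial-like cells both had too few UMIs to be compared. Hoxb6 stayed within 2-fold.

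Other members differed in fewer classes. In PEC-like cells Hoxc6 had 106 CPM in Sham and 52.6 CPM in IRI24h-TDN, Hoxc8 120 and 56.5 CPM, and Hoxc5 12.1 and 5.71 CPM. In IRI24h-TD, also taken 24 h after IRI, they had 94.3, 96.2 and 11.4 CPM, nearer to Sham. Podocyte markers in PEC-like cells summed to 2793 CPM in Sham, 2078 CPM in IRI24h-TDN and 4956 CPM in IRI24h-TD, and their part was not tested. Within the cluster led by Gc, Hoxc8 had 51.3 CPM in Sham and 24.4 CPM in IRI24h-TDN. Within the cluster led by Clstn2 it had 289 and 174 CPM, so that it was lower in IRI24h-TDN in both and past 2-fold in the former. Hoxc6 had 61.7 and 34.1 CPM in the cluster led by Gc and 185 and 131 CPM in the cluster led by Clstn2, past 2-fold in neither. The ratios of Hoxc6 and Hoxc8 in PEC-like cells lay close to 2-fold, and under 14 other settings of the processing they stayed past it in 7 and 8. In ascending limb-like cells Hoxa5 (42.9 and 19.5 CPM) and Hoxd11 (22.1 and 5.92 CPM) were lower, and Hoxa10 was higher, at 13.5 CPM on 11 UMIs in Sham and 31.7 CPM in IRI24h-TDN. Hoxb2 was higher there on 2 UMIs in Sham and 26 in IRI24h-TDN (ratio 2.24, 0.562 to 19.5).

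In PTEC-like cells Hoxb9 had 16.2 CPM in Sham and 36.2 CPM in IRI24h-TDN, and Hoxc9 8.91 and 28.4 CPM. Hoxb9 stayed past 2-fold in 8 of 14 other settings. Both were higher in IRI24h-TDN also within the cluster led by Kap with Slc7a13, at 9.41 and 29.7 CPM for Hoxb9, and within the cluster led by Kap with Nat8, at 8.37 and 49.3 CPM. Hoxb9 and Hoxc9 are among the members that were higher in PEC-like than in PTEC-like cells. In PTEC-like cells the PEC markers summed to 771 CPM in Sham and 1789 CPM in IRI24h-TDN, the proximal tubule markers to 66482 and 13018 CPM and the injury genes to 30.2 and 2907 CPM, and the part of these was not tested. Hoxd10 was lower on 23 UMIs in Sham and 2 in IRI24h-TDN (ratio 0.340, 0.0388 to 1.37). The class was made up differently in the 2 libraries, with 473, 258 and 282 cells of its 3 clusters in Sham and 69, 69 and 9 in IRI24h-TDN.

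Hoxc11 was the only member past 2-fold in mesangial/mural-like cells, with 15.2 CPM in Sham and 54.5 CPM in IRI24h-TDN (22 and 123 UMIs). The difference lay in the cluster led by Ren1 and Notch3, where 4 of 114 cells in Sham (3.51%, 0.964 to 8.74) and 46 of 210 cells in IRI24h-TDN (21.9%, 16.5 to 28.1) held a Hoxc11 UMI, at 12.6 and 95.5 CPM. A single cell of IRI24h-TDN held 21 of the 96 UMIs. In the cluster led by Myh11 the levels were 16.8 CPM (9.41 to 27.7) and 21.6 CPM (14.2 to 31.4), which did not differ beyond counting error.

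Hoxb3, a member under the limit in all classes, was lower in IRI24h-TDN in the 3 classes compared. It had 1.04 CPM in Sham and 0.302 CPM in IRI24h-TDN in podocyte-like cells, 6.31 and 2.86 CPM in connecting tubule/principal-like cells, and 25 and 2 UMIs in PTEC-like cells (ratio 0.312, 0.0359 to 1.25). It shares 2250 exonic bases with the antisense gene Hoxb3os, and without strand the reads of both cannot be told apart. In endothelial-like cells Hoxa9 (156 and 72.4 CPM), Hoxa10 (68.7 and 34.3 CPM), Hoxc4 (23.8 and 7.62 CPM) and Hoxc8 (156 and 68.6 CPM) were lower, and the podocyte markers were also lower, at 34.9% and 21.5% of their podocyte-like level. Hoxb9 was higher there, at 21.03 and 61.0 CPM. Under other settings Hoxa9 was past 2-fold in 7 of 14, and Hoxa10 in 3 of 13, with its direction turned in 3. In monocytic-like cells Hoxd8 had 4.02 CPM on 6 UMIs and 9.80 CPM on 57 UMIs, and Hoxb7 6.71 and 2.24 CPM on 10 and 13 UMIs, levels near those of other members in this class.

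IRI24h-TD and IRI24h-TDN, which had the same injury and another sort, were compared in the 3 classes with enough cells. They are separate libraries, so the sort cannot be told apart from differences between libraries or animals. Both comparisons share IRI24h-TDN. Of 71 pairs of member and class, 1 was at least 2-fold lower and 3 were at least 2-fold higher in IRI24h-TD. In podocyte-like cells none of 30 members was past 2-fold, beside 3.08% of all genes lower and 0.674% higher, and Hoxc8 had 413 CPM in IRI24h-TDN and 398 CPM in IRI24h-TD. In PEC-like cells (3.69% of all genes higher, 2.5% lower) Hoxd4 was the only member past it, at 1.803 CPM on 6 UMIs and 5.28 CPM on 19 UMIs. In PTEC-like cells (4.68% of all genes higher, 5.73% lower) Hoxc6 was higher, at 9.31 and 32.1 CPM, and Hoxc8 at 5.88 and 23.6 CPM, while Hoxa5 was lower, at 18.6 CPM and 8.44 CPM on 5 UMIs. The podocyte markers in PTEC-like cells were at 1.41% and 4.51% of their podocyte-like level in the same libraries, and the 101 PTEC-like cells of IRI24h-TD had a median of 1009 UMIs.

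Genes known to work with Hox proteins were read from 3 lists. The first held 9 cofactors of the Pbx, Meis and Pknox families, homeodomain proteins that bind DNA together with Hox proteins. Of these, 7 reached 10 CPM in PEC-like (41.4% of all genes), mesangial/mural-like (36.9%) and fibroblast-like cells (24.2%). The number was 6 in podocyte-like (35%), 5 in endothelial-like (29.2%) and 3 or 4 in the tubule classes (34.8% to 37.6%). Meis2 had 802 CPM in endothelial-like cells, 66.1 CPM in podocyte-like cells and between 1.71 and 5.63 CPM in the tubule classes. Pbx2, at 264 CPM, and Pbx3, at 112 CPM, were highest in podocyte-like cells. The tubule classes with the highest Hoxb and Hoxd levels had Meis1 at 0.143 to 3.51 CPM.

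Of the 12 kidney partners and Cdx genes, 10 were in the tables. At most 4 reached the limit in a class, namely in PEC-like (41.4% of all genes) and fibroblast-like cells (24.2%). Foxd1, a transcription factor of stromal progenitors, had 229 CPM in podocyte-like cells, and Pax2, which acts with Hox11 proteins in the embryonic kidney, had 137 CPM in PEC-like and 136 CPM in connecting tubule/principal-like cells. Six2, the nephron progenitor gene, stayed at or below 0.787 CPM. In PEC-like cells Eya1 was at 30.8 CPM in Sham and 9.92 CPM in IRI24h-TDN, Osr1 at 19.6 and 6.61 CPM and Meis1 at 25.3 and 11.1 CPM, all past 2-fold lower, as were Ret, Wnt11 and Pknox2. These were 4 of the 6 partners and 2 of the 9 cofactors compared in PEC-like cells, beside 13.9% of all genes lower there. In podocyte-like cells Osr1 was lower (9.36% of all genes) and Wnt11 higher (5.49%) of 6 partners compared. In PTEC-like cells Osr1 and Cdx4 were lower of 4 (13.4%). The 18 chromatin regulators of Hox clusters included subunits of the Polycomb and Trithorax complexes and H3K27 demethylases. Of these, 16 reached the limit in podocyte-like (35% of all genes) and 17 in PEC-like cells (41.4%). The number was 15 in monocytic-like (34.8%), 12 in fibroblast-like (24.2%) and 9 in lymphocyte-like cells (14.4%). Between Sham and IRI24h-TDN, 2 of 18 regulators were past 2-fold lower in PEC-like cells (13.9% of all genes), 3 of 18 in PTEC-like (13.4%), 2 of 17 in ascending limb-like (11.5%) and 1 of 17 in monocytic-like cells (7.81%). The Polycomb subunit Cbx8 was among them in PEC-like cells, at 14.4 and 6.61 CPM. None was past 2-fold higher in a class, and none was past 2-fold in podocyte-like, connecting tubule/principal-like, intercalated-like, mesangial/mural-like or endothelial-like cells.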

How the data were processed

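Cells of 3 libraries, 1 for each group of the labels, were captured and barcoded on the BD Rhapsody system. The authors deposited a table of raw counts of UMIs for every library, with genes against barcodes, made per the submitters' processing notes with CASAVA 1.8, UMI-tools and Seurat and the genome mm10. The aligner, annotation, strand setting and any filter on cells are not given in the sources used here, and the tables of Sham and IRI24h-TDN have the same size of 10062 barcodes and 20800 genes. UMIs were not divided by transcript length, so levels were compared between classes and not between genes.

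The tables held 30008 barcodes and 69980443, 92355554 and 93470709 UMIs in Sham, IRI24h-TDN and IRI24h-TD. Barcodes with under 200 genes (2109) or over 50% mitochondrial UMIs (1139) were left out. Counts were scaled to 10000 per cell, 2000 variable genes without Hox, mitochondrial, ribosomal and hemoglobin genes gave 30 principal components, libraries were aligned by Harmony (theta 2), and Leiden clustering (leidenalg 0.10.2, 15 neighbours, resolution 1) was run. A cluster was named "X-like" when 3 or more markers of a list were found in 25% of its cells or more, with its 10 leading genes looked at. Clusters with at least 3 cycling genes or a marker score under 0.5 stayed unnamed, and these 2 naming rules were added after seeing the data. Doublets were scored against simulated doublets, and the top 6% were left out only in an alternative.

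Classes of at least 50 cells were described. A member was named where it had at least 10 CPM and 30 UMIs in a class, and it was compared between libraries where it had at least 20 UMIs in both together, with a 2-fold difference as the limit and 3 counts as the floor for a group at 0. The level that podocyte RNA alone would give is the podocyte-like level times the share of the podocyte markers in that class. No p-value was computed. The scripts were tested on simulated data. Members, lists and limits were chosen with earlier results of these data known. The alternatives included TMM scaling (edgeR 4.0.16) and size factors (DESeq2 1.42.0). Analyses used Python 3.11.15, numpy 2.4.6, scipy 1.17.1, scikit-learn 1.9.0 and R 4.3.3, and exons were taken from GENCODE M21. Some genes are not reported here.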

Additional observations from a re-analysis of the deposited data

Results flagged for a closer look

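Hoxa10 was past 2-fold in opposite directions after injury, with a log2 ratio of IRI24h-TDN to Sham of -1.003 in endothelial-like and 1.24 in ascending limb-like cells. Hoxd8 did likewise, with -1.19 in ascending limb-like and 1.28 in monocytic-like cells. The monocytic-like value rested on 6 UMIs in Sham and 57 in IRI24h-TDN (ratio 2.44, 1.05 to 6.91). It stayed past 2-fold in 8 of 13 other settings, with a lowest log2 ratio of 0.0485. With 1 library per group the difference between classes was not tested, and the endothelial-like value of Hoxa10 did not keep its direction under all settings.

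Of 4 antisense genes of the Hox clusters, which were no members, 3 were above the limit that a count of 0 allows in their class of highest CPM. The remaining gene, Hoxaas3, was detected with 329 UMIs in all. Its highest CPM fell in the small neutrophil-like class on 1 UMI, at 3.53 CPM against a limit of 10.6 CPM there, and it was not set against the limit in other classes. Hoxb3os had 14.3 CPM in PTEC-like cells, with 18.3 CPM in Sham, 1.47 CPM in IRI24h-TDN and 5.06 CPM in IRI24h-TD. Hoxb5os had 71.8 CPM in distal convoluted tubule-like cells, and Hoxd3os1 12.3 CPM in podocyte-like cells against 1.08 CPM in monocytic-like cells.

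Members were also seen outside the named classes. Barcodes under 200 genes held 73.4 CPM of summed Hox UMIs, near the 78.1 CPM of monocytic-like cells, barcodes over 50% mitochondrial UMIs 459 CPM and the unnamed clusters 1437 CPM.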

How the results depend on the processing

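With 1 library per group, neither the spread between animals nor a batch can be told apart from the groups, and depth limits members under about 20 UMIs. The cause of the shifts given here was not tested. No paired analysis was possible because the groups compared share fewer than 2 replicate numbers, and a comparison between 2 libraries has no value without either of them.

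The summed Hox level of podocyte-like cells, 1636 CPM, was 1624 with classes from marker scores, 1644 in thinned cells, 1647 as a mean per cell, 1824 with TMM scaling, 1471 with DESeq2 size factors, 1699 without mitochondrial UMIs and 1612 to 1661 with 1 library left out. Between 18 and 25 of the 25 members kept their highest class, with 18 without correction between libraries and with marker scores.

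For IRI24h-TDN against Sham, the 24 lower of 193 pairs became 15 of 166 with at most 20% mitochondrial UMIs and 14 of 140 in thinned cells. They became 57 of 277 with at least 1 UMI and 60 of 193 at 1.5-fold. Of the 31 pairs past 2-fold, 9 could not be measured with at most 20% mitochondrial UMIs and 14 in thinned cells. The 7 higher of 193 pairs became 4 of 166 with at most 20% mitochondrial UMIs, 21 of 277 with at least 1 UMI and 20 of 193 at 1.5-fold. Hoxa10 in endothelial-like cells turned to a log2 ratio of 0.40 without top doublet scores, 0.43 with 4000 variable genes and 0.32 with marker scores, Hoxa5 in ascending limb-like cells to 0.16 in thinned cells and Hoxd9 in PEC-like cells to 0.23 within the cluster led by Clstn2, a setting chosen after seeing the data. Hoxd9 in the ascending limb-like, connecting tubule/principal-like and intercalated-like classes stayed past 2-fold in all settings measured (13, 14 and 14).

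For IRI24h-TD against IRI24h-TDN, the 1 lower of 71 pairs became 0 of 73 with at least 500 genes per cell and 0 of 72 without top doublet scores. It became 0 of 56 without correction, 0 of 70 at resolution 0.5, 0 of 70 with 4000 variable genes and 0 of 45 in thinned cells. It became 2 of 70 with at most 20% mitochondrial UMIs, 2 of 71 as a mean per cell and 2 of 71 at 1.5-fold. The 3 higher of 71 pairs became 9 of 73 with at least 500 genes, 5 of 70 with at most 20% mitochondrial UMIs and 9 of 70 at resolution 0.5. They became 7 of 71 at resolution 2, 5 of 70 with 4000 variable genes and 1 of 56 with marker scores. They became 0 of 45 in thinned cells, where the 4 pairs past 2-fold could not be measured. They became 7 of 71 as a mean per cell, 15 of 94 with at least 1 UMI and 8 of 71 at 1.5-fold.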
